A study of Homo sapiens with 8 samples.

Results

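PELP1, TEX10, WDR18, SENP3, LAS1L, NOL9 and MDN1 encode the rixosome, a nucleolar complex that processes ribosomal RNA, and their knockouts were followed in PC9 cells with and without EGFR inhibitors. The members were taken by gene name from the table of guide counts. Of the 7 genes listed, 6 had guides there, which is 6 of 17761 genes tested in the series, and SENP3 was not analysed here. Each of the 6 genes was targeted by 4 guides, and all 24 guides passed the filter on low counts. These genes were chosen from the measured values of this screen, and which comparison served for the choice is not recorded. Their values are therefore a description in all 4 comparisons, and where a member is said to be called, this only places it among all genes under the same rule and is no test of the member.

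Ribosomal RNA is transcribed by RNA polymerase I as one long precursor, from which spacers are cut away while ribosomal proteins and assembly factors bind. The rixosome acts on the precursor of the large subunit, where the internal spacer ITS2 separates the RNAs of that subunit. PELP1 is the scaffold that holds TEX10 and WDR18, and the protease SENP3 removes SUMO from PELP1. LAS1L is the endonuclease that cuts ITS2, and NOL9 is the polynucleotide kinase that acts on the cut end, after which exonucleases trim the remainder. MDN1, a very large AAA ATPase, pulls assembly factors off the maturing particle.

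PC9 is an EGFR-mutant non-small cell lung cancer cell line. The cells stably expressed Cas9 and carried TKOv3, a pooled knockout library with up to 4 single guide RNAs per gene, so that the reads of a guide stand for the cells that carry that knockout. The 4 groups were cells exposed for 72 h to 10 µM erlotinib, cells exposed for 72 h to 0.1 µM osimertinib, cells kept for 72 h in vehicle (untreated), and cells collected at drug addition (T0), with 2 libraries each. Per the methods, the Cas9 cells were a selected population, only the untreated cultures were passaged on the way, and the harvest was of live cells. Per the labels, cells were infected in duplicate, and the study calls its replicates biological. Which infection each library goes back to is not given in the sources used here, so the spread between libraries may be partly technical. The methods state how many cells were infected per treatment condition. If the groups were infected separately, infection and treatment cannot be told apart. With 2 libraries against 2, the smallest two-sided p of an exact permutation test on a single gene is 0.333, so no such test can pass the threshold.

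The libraries held between 32096281 and 39200466 reads, and between 206 and 262 guides without a read. Gene values are log2 fold changes (L2FC), the median over a gene's guides relative to the median non-targeting guide, and the error given is the SD between the 4 guides. A gene was called where its Benjamini-Hochberg adjusted empirical p, from draws of non-targeting guides, was under 0.05. Targeting guides as a whole became rarer than non-targeting guides during growth. The median gene had an L2FC of −0.17 in untreated cells relative to T0, and 86.4% of all 67393 targeting guides had a negative value. Each count of members is therefore printed beside the percentage of all genes called in the same direction, and nothing is read from the members' share, since their values served for the choice.

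Growth without drug came first, because it shows how far these knockouts were lost over the 72 h after T0. Per the methods, T0 followed infection, puromycin selection and recovery, so loss before T0 is not counted. Knockouts of all 6 genes became rarer over 72 h. PELP1 had the strongest loss, with an L2FC of −1.22 ± 0.64, which left 42.8% of the T0 abundance. NOL9 followed at −1.13 ± 0.21 and TEX10 at −1.09 ± 0.38. LAS1L stood at −0.85 ± 0.47, WDR18 at −0.81 ± 0.41 and MDN1 at −0.66 ± 0.20, with 63.3% of the T0 abundance left for MDN1. Neighbours in this order differed by less than the larger of their SDs between guides. Between 0.788% and 4.72% of all genes had a lower value than these members. All 6 were called lower, in a comparison where 66.7% of all genes were called lower and 0.169% were called higher.

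The loss was visible in each library. The level of a gene in a library is the median of its guides on the log2 scale, relative to the mean of the T0 libraries and to non-targeting guides. PELP1 knockouts stood at −1.34 and −1.01 in the untreated libraries, against −0.0027 and 0.0027 at T0. TEX10 knockouts stood at −1.05 and −1.10 in untreated cells, against −0.04 and 0.04 at T0. Untreated replicates were thus further apart for PELP1 than for TEX10. The T0 levels of a gene mirror each other because each guide is centred on its own T0 mean. Guides that deviate in opposite directions also cancel in the median. PELP1 guide 2 stood at 0.14 and −0.14 at T0, so close T0 levels of a gene do not measure replicate agreement. The nuclease LAS1L stood at −0.84 and −0.83 in untreated cells, against 0.0041 and −0.0041 at T0. Its partner NOL9 stood at −1.18 and −1.02 in untreated cells, against 0.02 and −0.02 at T0. For WDR18 the untreated levels were −0.73 and −0.81, against 0.05 and −0.05 at T0. For these genes the untreated levels lay far from those at T0 relative to the distance between untreated replicates. MDN1 had untreated levels of −0.62 and −0.67, against 0.07 and −0.07 at T0. The untreated and T0 libraries did not overlap for any of the 6 genes, as was the case, with untreated below T0, for 77.8% of all genes.

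**Figure D1:**
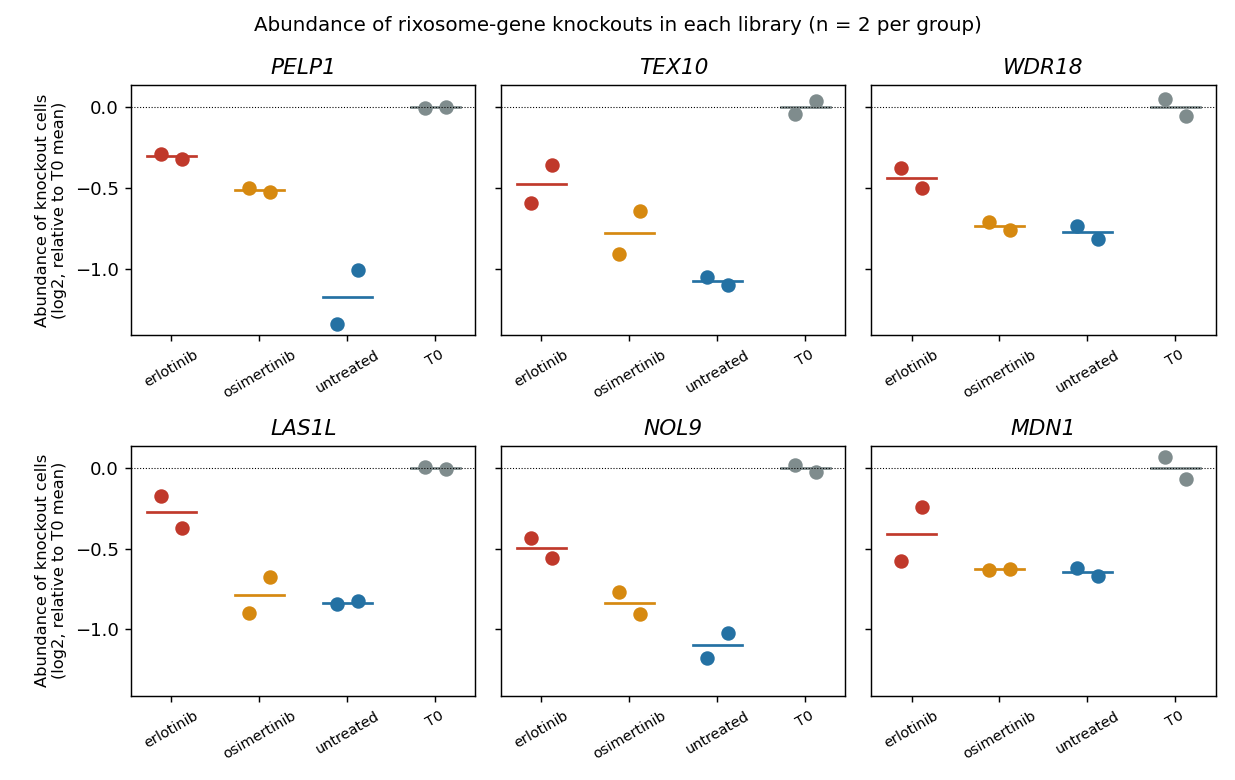
Abundance of knockout cells for the 6 genes (log2, relative to non-targeting guides and to the mean of the T0 libraries), with a point for each library and a line at the mean of the 2 libraries of a group. Both erlotinib libraries lie above both untreated libraries for all 6 genes, as they do for 27.8% of all genes. They also lie above both osimertinib libraries for all 6, as for 24.4% of all genes. For MDN1, erlotinib replicate 1 (−0.58) lies close to the untreated libraries (−0.62 and −0.67). PELP1 stands at −0.29 and −0.32 under erlotinib against −1.34 and −1.01 in untreated cells.

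Under erlotinib the same knockouts were more abundant than in untreated cells. PELP1 had an L2FC of 0.89 ± 0.49 for erlotinib relative to untreated, a 1.85-fold higher abundance, and 99.9% of all genes had a lower value. LAS1L was next at 0.59 ± 0.30, ahead of NOL9 at 0.55 ± 0.09 and TEX10 at 0.48 ± 0.30. The ends of the order were WDR18 at 0.32 ± 0.23 and MDN1 at 0.26 ± 0.23, a 1.20-fold difference in abundance for MDN1. Neighbours in this order differed by less than the larger SD between guides of the pair. All 6 were called higher, where 6.23% of all genes were called higher and 4.58% lower. The call for MDN1 was lost without untreated replicate 2 (L2FC 0.19) and without erlotinib replicate 2 (0.18). With all targeting guides as reference, the calls for MDN1 (0.26) and WDR18 (0.31) were lost.

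In single libraries, PELP1 knockouts stood at −0.29 and −0.32 under erlotinib, against −1.34 and −1.01 in untreated cells. The erlotinib replicates were close together, and the gap to the nearer untreated library was many times larger. LAS1L stood at −0.17 and −0.37 under erlotinib, against −0.84 and −0.83 in untreated cells. NOL9 stood at −0.43 and −0.56 under erlotinib, against −1.18 and −1.02 in untreated cells. For TEX10 the levels were −0.60 and −0.36 under erlotinib, against −1.05 and −1.10 in untreated cells. For these 3 genes, too, the groups were separated by more than the replicates of either. WDR18 had levels of −0.37 and −0.50 under erlotinib, against −0.73 and −0.81 in untreated cells. MDN1 had levels of −0.58 and −0.24 under erlotinib, against −0.62 and −0.67 in untreated cells, so that erlotinib replicate 1 lay close to the untreated libraries. Both erlotinib libraries were above both untreated libraries for all 6 genes, which held for 27.8% of all genes.

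With osimertinib, knockouts of the scaffold gene had the largest value. PELP1 had an L2FC of 0.56 ± 0.40 for osimertinib relative to untreated, a 1.48-fold higher abundance. WDR18 and TEX10 had nearly equal values, 0.24 ± 0.20 and 0.23 ± 0.17. LAS1L had an L2FC of 0.17 ± 0.30, MDN1 of 0.09 ± 0.29 and NOL9 of 0.08 ± 0.27, and these 3 were not called. Knockouts of the 3 genes PELP1, TEX10 and WDR18 were called higher, where 4.41% of all genes were called higher and 4.6% lower. TEX10 and WDR18 lay near the threshold, with adjusted empirical p of 0.047 and 0.045. The calls for TEX10 and WDR18 depended on single libraries. Without osimertinib replicate 2 the TEX10 value was 0.0051 and was not called, without untreated replicate 2 it was 0.21 and was not called, and without osimertinib replicate 1 it was 0.44. WDR18 was not called when either untreated or either osimertinib replicate was left out, with values between 0.19 and 0.28.

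PELP1 knockouts stood at −0.50 and −0.52 under osimertinib, against −1.34 and −1.01 in untreated cells. TEX10 stood at −0.91 and −0.64 under osimertinib, against −1.05 and −1.10 in untreated cells, so that osimertinib replicate 2 carried most of the difference. NOL9 stood at −0.77 and −0.91 under osimertinib, against −1.18 and −1.02 in untreated cells. Both osimertinib libraries were above both untreated libraries for these 3 genes, which was the case for 24.7% of all genes. The levels under osimertinib were −0.71 and −0.76 for WDR18, −0.90 and −0.67 for LAS1L and −0.63 and −0.62 for MDN1. Each of these overlapped with the untreated libraries. A gene L2FC is the median of guide fold changes, whereas a library level is the median of guide levels, so they can diverge. WDR18 was thus called without separate libraries, and NOL9 had separate libraries without being called.

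**Figure D2:**
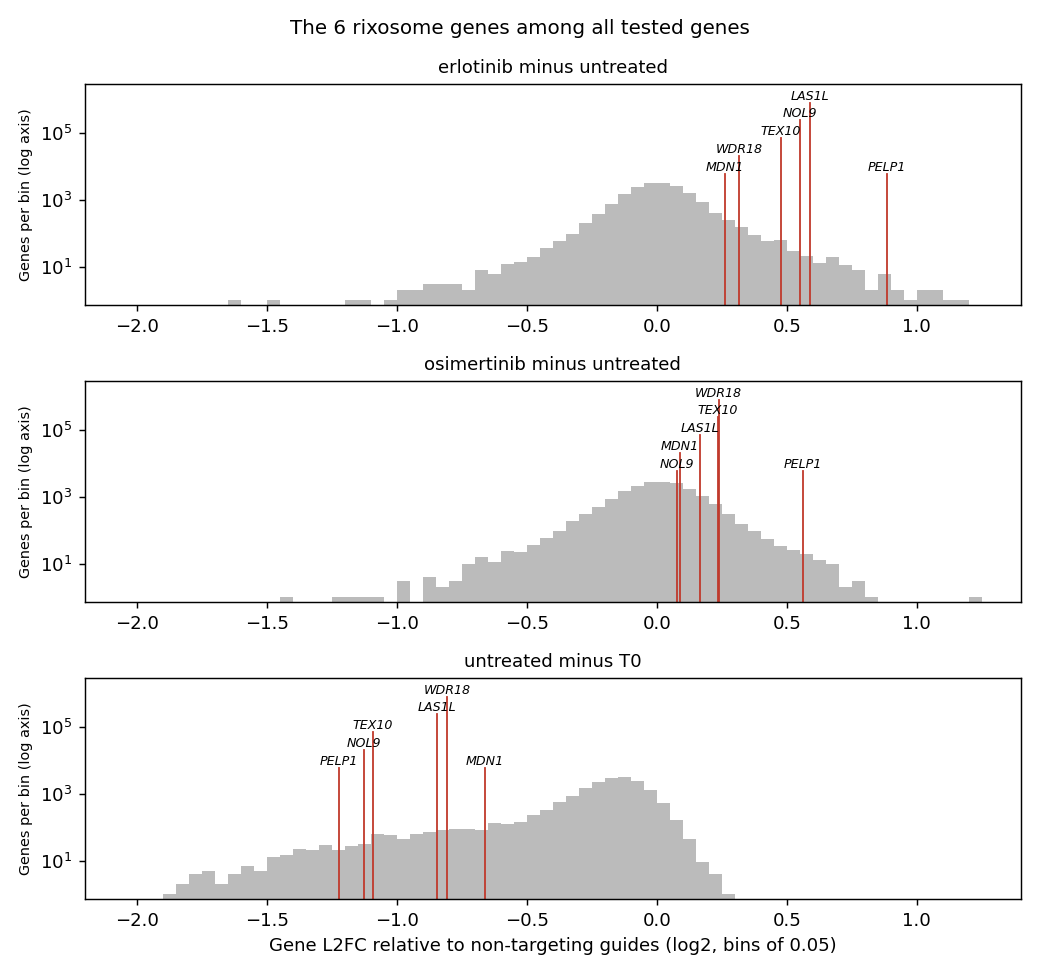
L2FC of the 6 genes (red lines) over the distribution of all 17761 tested genes (grey, genes per bin of 0.05 on a logarithmic axis) for erlotinib relative to untreated, osimertinib relative to untreated and untreated relative to T0. PELP1 lies at 0.89 with erlotinib, 0.56 with osimertinib and −1.22 in growth without drug, and MDN1 is the least depleted member at −0.66.

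Both drugs were also set directly against each other, at doses that differ. LAS1L had an L2FC of 0.47 ± 0.11 for erlotinib relative to osimertinib, NOL9 of 0.43 ± 0.19 and MDN1 of 0.31 ± 0.20, and these 3 genes were called higher. TEX10 had 0.24 ± 0.14, WDR18 0.18 ± 0.21 and PELP1 0.13 ± 0.24, and they were not called. In this comparison 1.91% of all genes were called higher and 0.614% lower. Which members were called depended on the processing, as TEX10 was called without the filter on low guides, with means over guides and relative to neighbouring genes, and MDN1 was not called with limma or with all targeting guides as reference. The LAS1L call was lost without erlotinib replicate 1 or osimertinib replicate 1 (L2FC 0.30 each), and the MDN1 call without erlotinib replicate 2 (0.10) or osimertinib replicate 2 (0.16). Both erlotinib libraries were above both osimertinib libraries for all 6 genes, a pattern found in 24.4% of all genes. The drug comparisons share their untreated libraries, so their values are given side by side only.

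Relative to T0, the knockouts were depleted in every treatment group. The L2FC for erlotinib relative to T0 was −0.32 for PELP1, −0.45 for TEX10, −0.43 for WDR18, −0.24 for LAS1L, −0.49 for NOL9 and −0.34 for MDN1. For osimertinib relative to T0 it was −0.47 for PELP1, −0.76 for TEX10, −0.72 for WDR18, −0.66 for LAS1L, −0.82 for NOL9 and −0.66 for MDN1. Set against the loss in untreated cells, PELP1 kept 26.2% of it under erlotinib and 38.7% under osimertinib. LAS1L kept 28.8% of its untreated loss under erlotinib and 77.8% under osimertinib, while MDN1 kept 51.8% and 100.3% of it with these drugs. Over all genes, the median relative to T0 was −0.17 in untreated cells, −0.144 under erlotinib and −0.140 under osimertinib. All these shares thus include a general loss of targeting guides that the drugs changed little. For the median of the members, the share was 39.9% under erlotinib and 71.2% under osimertinib. By these medians over guides, PELP1 had the smallest share of its loss left under either drug, but LAS1L was close to it under erlotinib. With guides as unlike as those of PELP1, this order may depend on the summary over guides. How many divisions each culture went through was not measured in these counts, and its part in these shares was not tested.

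The guides of a gene did not act alike. Guide 1 of PELP1 had 759 and 754 reads under erlotinib, 883 and 874 under osimertinib, 784 and 948 in untreated cells and 822 and 941 at T0. Guide 2 of PELP1 had 235 and 220 reads under erlotinib, 182 and 196 under osimertinib, 120 and 129 in untreated cells and 361 and 316 at T0. Guide 1 barely changed, with an L2FC of −0.14 in untreated cells relative to T0, while guides 2, 3 and 4 had −1.56, −1.40 and −1.04. The same guides carried the drug difference, at 1.03, 0.83 and 0.94 for erlotinib relative to untreated, against −0.03 for guide 1. The growth and drug comparisons share the untreated libraries with opposite sign, so their values for a guide are not independent. With osimertinib relative to untreated, the values were 0.56, 0.56 and 0.96 for guides 2, 3 and 4 and −0.01 for guide 1. Guides 2, 3 and 4 thus lay closer to one another than to guide 1 in the growth and erlotinib comparisons.

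TEX10 had a guide of the same kind. Its guide 2 had an L2FC of −0.40 in untreated cells relative to T0 and 0.18 for erlotinib relative to untreated. Its other guides lay between −1.28 and −1.08 in the growth comparison and between 0.44 and 0.89 in the erlotinib comparison. Guide 1 of TEX10 had 489 and 621 reads under erlotinib, 448 and 497 under osimertinib, 347 and 320 in untreated cells and 705 and 794 at T0. The nuclease gene LAS1L had its largest loss with guide 4, which had 488 and 437 reads under erlotinib, 374 and 417 under osimertinib, 244 and 245 in untreated cells and 640 and 709 at T0. In untreated cells relative to T0, NOL9 guides 2, 3 and 4 had −1.13 each and guide 1 had −0.71. Under osimertinib relative to untreated, however, NOL9 guides 1 and 2 had −0.12 and −0.17, and guides 3 and 4 had 0.28 and 0.35, so the gene value of 0.08 lies between opposite signs. MDN1 guide 1 was the shallowest of the 24, with 63 and 103 reads under erlotinib, 84 and 62 under osimertinib, 106 and 87 in untreated cells and 115 and 124 at T0. Over the 24 guides, 24 had a negative value in untreated cells relative to T0, against 86.4% of all targeting guides. For erlotinib relative to untreated 22 were positive, against 51% of all targeting guides, and for osimertinib relative to untreated 18 were positive, against 52%. Guides of a gene share their target and are not replicates of a condition.

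**Figure D3:**
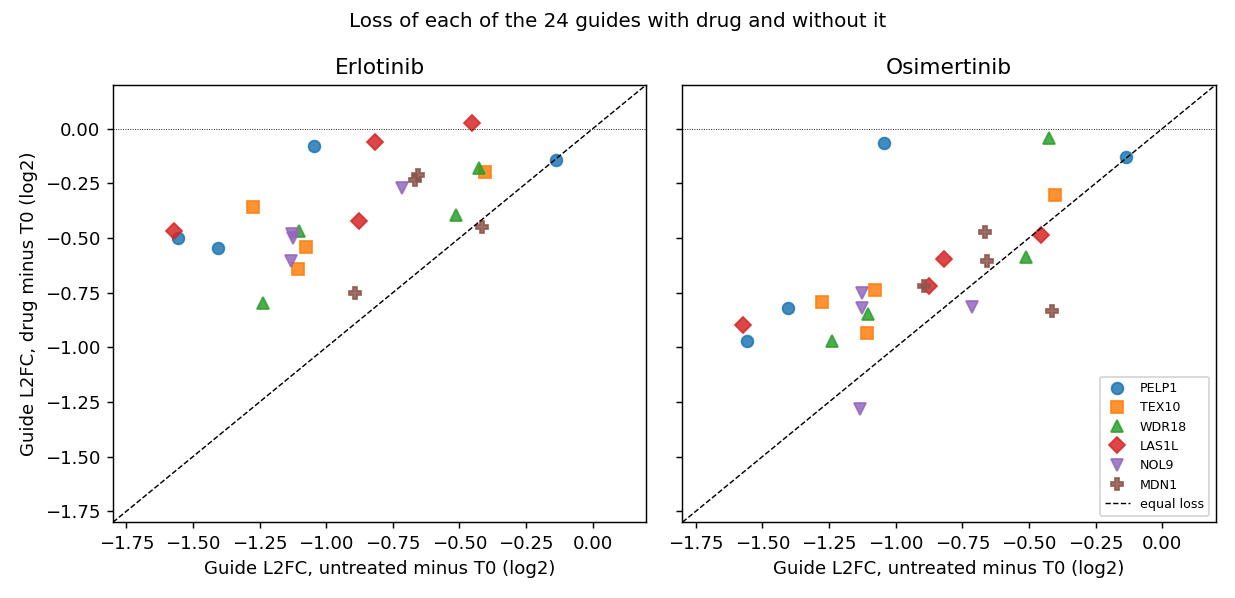
L2FC of each of the 24 guides under drug relative to T0 (vertical axis, log2) against that in untreated cells relative to T0 (horizontal axis, log2), for erlotinib and osimertinib, with symbols by gene and a dashed line of equal loss. Of the 24 guides, 22 lie above the line for erlotinib and 19 for osimertinib, the PELP1 guide at −0.14 lying close to it in both panels. This is 1 guide more for osimertinib than were positive relative to untreated, because each comparison is centred on its own median of non-targeting guides. Relative to untreated, 51% of all targeting guides were positive for erlotinib and 52% for osimertinib. The share of all targeting guides above the line was not computed, so the counts only describe guides of genes chosen from measured values.

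Cutting in amplified or gained regions can deplete guides whatever the gene does, so the members were also set against the median of their 20 nearest tested genes. In untreated cells relative to T0 that median lay between −0.27 for WDR18 and −0.08 for LAS1L. PELP1 was 1.10 below its neighbours, which had a median of −0.12, and MDN1 was 0.46 below its neighbours, with a median of −0.20. For erlotinib relative to untreated the neighbours of the members lay between −0.05 and 0.04. The neighbours of TEX10 had a median of 0.09 for osimertinib relative to untreated, which left 0.15 of the TEX10 value of 0.23, and this difference was not called.

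Patterns most like those of PELP1 and TEX10 were sought over the 6 libraries at 72 h, by the root mean square (RMS) of the difference in level. For PELP1 the nearest 5 genes were WAPAL (WAPL), the cohesin release factor, at an RMS of 0.08, NRF1, a transcription factor, at 0.10, PPAT, the first enzyme of purine synthesis, at 0.14, XRN2, a nuclear exonuclease, at 0.15, and HSCB, a mitochondrial iron-sulfur cochaperone, at 0.15. For TEX10 they were GNB2L1 (RACK1), a small subunit protein of the ribosome, at 0.07, THAP1, a transcription factor, at 0.09, WDR12, a large subunit assembly factor, at 0.10, CHCHD4, of mitochondrial protein import, at 0.10, and RPF2, which loads the 5S particle, at 0.11. Members were not among the nearest 5. Of 17760 genes, the member nearest to PELP1 was NOL9 at rank 50, followed by TEX10 at 69, LAS1L at 121, WDR18 at 167 and MDN1 at 324. The member nearest to TEX10 was also NOL9, at rank 45, and PELP1 stood at rank 225. Likeness over 6 libraries reflects the size of the loss in each group as well as its pattern, and all libraries share the same T0 scale.

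Other steps of ribosome synthesis were described by gene lists, which were drawn up with results of this screen known and of which some share genes. Lists are given by their counts and medians, next to a median over all genes of 0.0043 for erlotinib and 0.0099 for osimertinib, each relative to untreated. Of all genes, 66.7% were called lower in untreated cells relative to T0, so list counts in that comparison start from a high share. With erlotinib 6.23% of all genes were called higher and 4.58% lower, and with osimertinib 4.41% and 4.6%. Between the drugs 1.91% were called higher. Of 41 early nucleolar assembly factors of the large subunit, 28 were called higher with erlotinib relative to untreated and 38 lower in untreated cells relative to T0. Their median L2FC was 0.30 with erlotinib and 0.20 with osimertinib. DDX55, a helicase, had 0.87 ± 0.12 (n = 3 guides) with erlotinib, PES1 had 0.78 ± 0.50 (n = 4) and URB1 had 0.69 ± 0.11 (n = 3). PES1, BOP1 and WDR12 form a complex of their own in this step, with 0.78, 0.33 and 0.68 under erlotinib and 0.43, 0.35 and 0.49 under osimertinib, all called higher. With osimertinib 16 of the 41 were called higher and 1 lower, EBNA1BP2 at −0.53 ± 0.37 (n = 3). When all targeting guides served as the reference distribution, 16 of the 41 were called higher with erlotinib and 1 with osimertinib.

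Factors that remodel the particle, as MDN1 does, were described next. Of 10 tested genes for AAA ATPases and other proteins of particle remodelling, 9 were called higher with erlotinib and 6 with osimertinib. Their medians were 0.50 and 0.26, and all 10 were called lower in untreated cells relative to T0. NVL, an AAA ATPase that releases WDR74 from the particle, had 0.58 ± 0.49 (n = 4) with erlotinib and 0.37 ± 0.23 with osimertinib. WDR74 itself had 0.28 ± 0.30 (n = 3) with erlotinib, which was called, and −0.01 ± 0.12 with osimertinib, which was not. SPATA5, a further AAA ATPase of the large subunit, had 0.53 ± 0.20 (n = 4) with erlotinib and 0.34 ± 0.12 with osimertinib. GNL2, a GTPase that precedes the action of MDN1, had 0.25 with either drug and was called in both comparisons. NPM1 had a single guide with between 0 and 7 reads per library and was not tested.

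Downstream of the LAS1L cut, the spacer is trimmed by exonucleases and the nuclear exosome. Of 19 such genes, 17 were called lower in untreated cells, and 10 were called higher with erlotinib and 1, XRN2, with osimertinib. XRN2 had an L2FC of 0.68 ± 0.45 (n = 4) with erlotinib and 0.31 ± 0.35 with osimertinib, each relative to untreated. ISG20L2, the exonuclease that trims the spacer end, had 0.59 ± 0.28 (n = 4) with erlotinib. EXOSC10, the nuclear catalytic subunit of the exosome, had 0.29 ± 0.11 (n = 4) with erlotinib and was called, and 0.09 ± 0.12 with osimertinib and was not. SKIV2L2 (MTR4), the helicase that feeds the exosome, had −0.02 ± 0.14 with erlotinib and 0.13 ± 0.17 with osimertinib, despite −0.90 ± 0.59 in untreated cells relative to T0 (n = 4), and passed neither drug test. Set directly against each other, erlotinib was called higher than osimertinib for 9 of the 19 genes, EXOSC5 with the largest value at 0.53 ± 0.28 (n = 4).

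Export and the last cytoplasmic steps had 28.4% of their untreated loss left under erlotinib and 79.9% under osimertinib by the ratio of medians, but 43.0% and 71.9% by the ratio of means. Of 9 such genes, all were called lower in untreated cells relative to T0, 6 were called higher with erlotinib and 2 with osimertinib. SBDS, which with EFTUD1 (EFL1) evicts an anti-association factor from the large subunit, had 1.08 ± 0.26 (n = 4) with erlotinib and 0.59 ± 0.26 with osimertinib. EFTUD1 had 0.81 ± 0.43 (n = 4) with erlotinib and 0.45 ± 0.27 with osimertinib. Of 5 genes of the 5S particle and its loading, all were called lower in untreated cells and 3 higher with erlotinib, RPF2, RRS1 and RPL11. With osimertinib, none of the 5 was called by edgeR guide values with the empirical test, 1 was higher at an unadjusted p under 0.05, and DESeq2 and limma called 0 and 1.

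The small subunit branch is shown beside the large one because both start from the same transcript. Of 59 processome and small subunit assembly genes, 59 were called lower in untreated cells relative to T0, with a median of −1.02. With erlotinib relative to untreated, 23 were called higher, with a median of 0.14. With osimertinib relative to untreated, 5 were called lower, with a median of −0.03, IMP3 at −0.38 ± 0.34 (n = 4) and UTP6 at −0.33 ± 0.40 (n = 4) having the largest values. None of the 59 was called higher with osimertinib by edgeR guide values with the empirical test, 3 were higher at an unadjusted p under 0.05, and DESeq2 and limma each called 0. The share of the untreated loss that was left, taken at the median, was 75.1% under erlotinib and 93.2% under osimertinib for these genes, against 55.3% and 68.8% for early large subunit factors. Whether the 2 branches differ was not tested, since genes of a list are not independent.

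RNA polymerase I, which makes the transcript, had 13 of 19 genes called higher with erlotinib and 8 with osimertinib, with medians of 0.30 and 0.18. All 19 were called lower in untreated cells relative to T0. POLR1B, its second-largest subunit, had 0.58 ± 0.28 (n = 4) with erlotinib and 0.37 ± 0.17 with osimertinib. Ribosomal proteins of the large subunit had 14 of 34 called higher with erlotinib, with a median of 0.19, and 4 with osimertinib, with a median of 0.0097. RPL8 had the largest loss in untreated cells among them, −1.24 ± 0.16 (n = 4), and 0.50 ± 0.33 with erlotinib. For the small subunit proteins, 4 of 21 were called higher and 1 lower with erlotinib, and 1 was lower with osimertinib, RPS3 at −0.27 ± 0.24 (n = 4). Proteasome genes, which are needed for growth and play no direct part in this pathway, were all called lower in untreated cells (32 of 32, median −0.62). With erlotinib 3 of them were called higher and 5 lower, and with osimertinib 10 were called lower, PSMC6 having −0.74 ± 0.49 (n = 4). At the median, they kept 96% of their untreated loss under erlotinib and 117.5% under osimertinib. At the median, proteasome genes were thus depleted in untreated cells without being more abundant under either drug. Why the lists differ in this was not tested.

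The counts for these lists were lower when all targeting guides served as the reference. With erlotinib relative to untreated, 6 of 10 remodelling factors, 5 of 9 export factors, 2 of 19 spacer trimming genes, 3 of 19 RNA polymerase I genes, 4 of 34 large subunit proteins and 3 of 59 small subunit assembly genes were then called higher. With osimertinib, the calls left in these 6 lists were 2 of the 9 export factors. Over all genes, this reference gave 270 genes called higher with erlotinib and 113 with osimertinib.

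**Figure D4:**
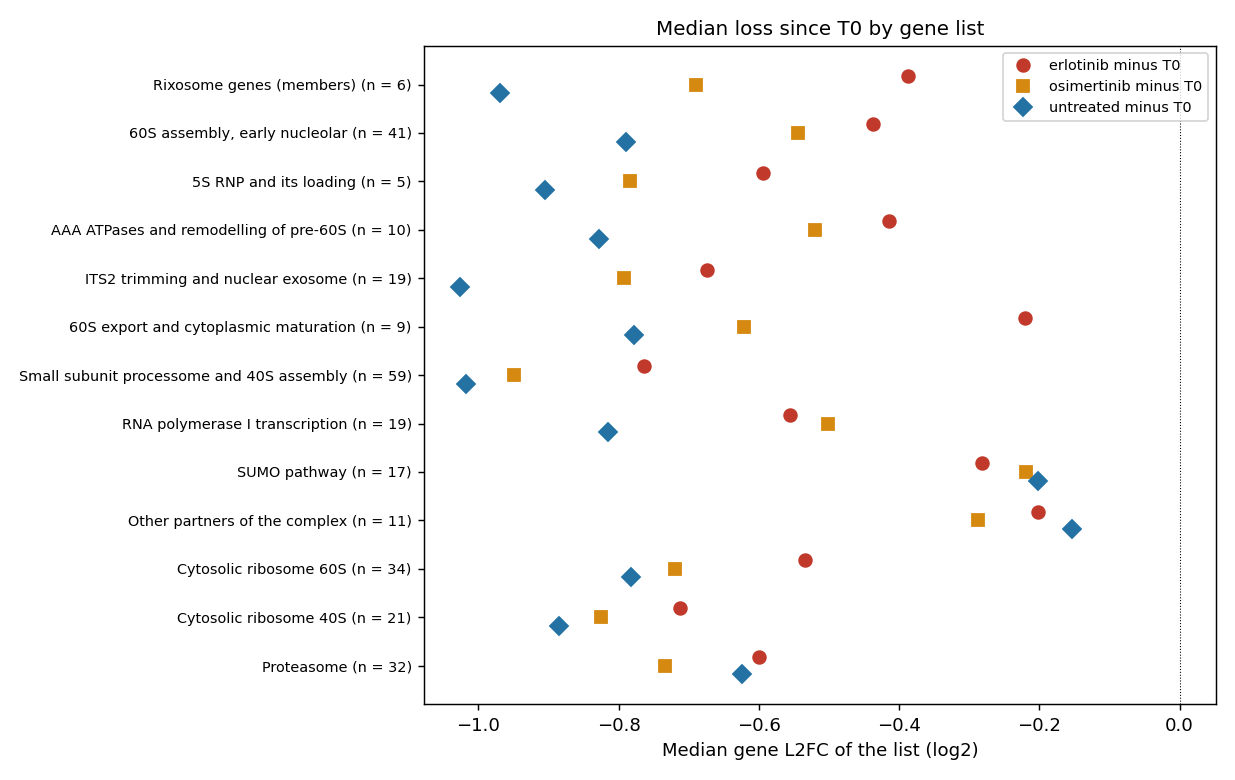
Median L2FC of each gene list relative to T0 (log2, n = genes tested) under erlotinib (circles), under osimertinib (squares) and in untreated cells (diamonds). The rixosome genes stand at −0.39 under erlotinib, −0.69 under osimertinib and −0.97 in untreated cells, while proteasome genes stand at −0.60, −0.73 and −0.62.

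Partners outside ribosome synthesis were examined last. The SUMO pathway was included because SENP3 removes SUMO from PELP1. Of its 17 genes, 14 were called lower in untreated cells relative to T0, next to 66.7% of all genes. With the drugs, 4 were called lower for erlotinib and 3 for osimertinib, next to 4.58% and 4.6% of all genes. UBA2 and SAE1, the subunits of the SUMO-activating enzyme, had −0.37 ± 0.12 and −0.28 ± 0.28 (n = 4 each) with erlotinib and −0.43 ± 0.13 and −0.34 ± 0.25 with osimertinib. Other proteins reported to bind the complex, among them CHTOP, the arginine methyltransferases PRMT1 and PRMT5, and Polycomb proteins, had 7 of 11 called lower in untreated cells, next to 66.7% of all genes, 1 lower with erlotinib and 2 lower with osimertinib. CHTOP had −0.09 ± 0.23 with erlotinib and −0.0071 ± 0.09 with osimertinib, neither called. EED, a Polycomb protein, was the gene called with erlotinib at −0.26 ± 0.16 (n = 4) and was called with osimertinib at −0.37 ± 0.15.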

How the data were processed

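Values deposited by the authors are raw counts of reads for each guide in 8 libraries, not normalized. Per the labels and methods, guide inserts were amplified by PCR in sequential rounds, constant sequence was trimmed, and reads were mapped to the library allowing a single mismatch. The methods name Bowtie2 for this step, whereas the submitters' processing notes name Bowtie 1.3.1. No molecular identifiers are named, and PCR copies are not independent molecules. Counts of replicates varied beyond counting error (chi-square per degree of freedom 2.71 to 5.18). Spreadsheet software had altered 50 gene names, of which 49 were restored and 1 left out with its 4 guides.

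The 5% of guides with the lowest mean normalized count, under 46.0 reads, were dropped, and 67531 guides with 138 non-targeting ones among them were kept. With edgeR 4.0.16 in R 4.3.3, all libraries entered a single quasi-likelihood fit after TMM scaling. Guide L2FC were collapsed to the median over at least 2 guides, minus the median of non-targeting guides. A two-sided empirical p came from 10000 draws of non-targeting guides in the gene's guide number and was adjusted by Benjamini-Hochberg over all 17761 genes, with a threshold of 0.05. This p does not measure the spread between cultures. The calculation was also run on simulated counts, only to check that changes put in were recovered. There, all guides of a gene changed alike and unchanged genes were level with non-targeting guides. The screen differs in both respects, so the simulation does not bear on its calls. For library levels, log2 CPM with a prior count of 1 were used.

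Members and gene lists were chosen with earlier results of these data known. Named genes were all members, the partners of the complex fixed in a list, up to 3 genes with the largest change per list and comparison among those called, of which some are printed, and the nearest 5 genes in pattern to PELP1 and TEX10. Some genes covered by this rule are not reported here. Alternatives used DESeq2 1.42.0, limma 3.58.1, other scalings, filters, references and summaries, subtraction of neighbouring genes, a replicate block, and each library left out.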

Additional observations from a re-analysis of the deposited data

Results flagged for a closer look

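The effects of the drugs on 3 members were called different in the direct comparison of the drugs. LAS1L had an L2FC of 0.47 for erlotinib relative to osimertinib, NOL9 of 0.43 and MDN1 of 0.31. For LAS1L, the value relative to untreated was 0.59 with erlotinib and 0.17 with osimertinib. NOL9 had 0.55 and 0.08 with these drugs, and MDN1 had 0.26 and 0.09. The doses of the drugs differ, and the members were chosen from measured values of this screen, so the difference is a description.

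Other genes named by rule had effects that differed between the drugs by the same rule, all with higher values for erlotinib relative to osimertinib. Of all 448 genes called between the drugs, 75.7% were higher. Most genes below were picked as the largest called values of their lists, so the shared direction is a description. RPL13, RPS15A and PSMA7 had 2 guides each, with an SD of 0.47 for PSMA7. Among early large subunit factors the L2FC between the drugs was 0.61 for DDX55, 0.51 for URB1, 0.47 for NOP16 and 0.27 for PES1. The remodelling GTPases GTPBP4 and GNL3 had 0.32 and 0.27, and RPL11 of the 5S particle had 0.36. Of the spacer trimming genes, EXOSC5 had 0.53, EXOSC3 0.46 and XRN2 0.37. In the late steps EFTUD1 had 0.42 and SBDS 0.35. Ribosomal proteins of the large subunit had 0.54 (RPL13), 0.38 (RPL10) and 0.36 (RPLP0), and those of the small subunit 0.40 (RPS15A), 0.35 (RPS25) and 0.25 (RPS21). The small subunit assembly factors NAT10, IMP3 and RRP12 had 0.48, 0.44 and 0.40. In RNA polymerase I transcription the values were 0.35 for POLR1B, 0.28 for POLR1A and 0.27 for UBTF. Outside ribosome synthesis, PSMA7 had 0.54, PSMD2 0.52, PSMA6 0.32 and PRMT5 0.29.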

How the results depend on the processing

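No alternative reversed the direction of a called member or of the members' median. The median over members for untreated relative to T0 was −0.79 with all targeting guides as reference, −0.94 with means over guides and −0.84 relative to neighbouring genes. For erlotinib relative to untreated it was 0.56 with limma, and for osimertinib relative to untreated 0.14 relative to neighbouring genes. The 3 members called with osimertinib relative to untreated became 1 with all targeting guides as reference, 1 with means over guides and 1 relative to neighbouring genes, PELP1 each time, and 2 with limma. With all targeting guides as reference, 5 members were called for untreated relative to T0, 4 for erlotinib relative to untreated and 2 between the drugs. Values that were not called changed sign for MDN1 with osimertinib (−0.02 with means over guides, −0.03 without osimertinib replicate 2) and for NOL9 (−0.01 without untreated replicate 1).

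Counts over all genes depended more on the reference. With all targeting guides as reference, 606 genes were called for untreated relative to T0, 401 for erlotinib and 259 for osimertinib relative to untreated, and 81 between the drugs. In place of 11842 lower and 30 higher for untreated relative to T0, values relative to neighbouring genes gave 3225 calls, 29.4% of them higher. Of 1920 calls for erlotinib relative to untreated, 57.7% were higher, against 68.5% of 1266 with limma and 67.3% with all targeting guides as reference. For osimertinib relative to untreated, 1600 calls became 982 with means over guides and 824 relative to neighbouring genes. Between the drugs, 448 calls (75.7% higher) became 937 (63.5%) without the filter on low guides and 243 with limma, and 87.7% were higher with all targeting guides as reference.

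Leaving out each library in turn gave 8284 to 11882 calls for untreated relative to T0, 1141 to 2442 for erlotinib and 683 to 2067 for osimertinib relative to untreated, and 111 to 515 between the drugs. Members called were 6 to 6, 5 to 6, 1 to 3 and 2 to 3 in these comparisons, and their medians −0.97 to −0.92, 0.46 to 0.55, 0.14 to 0.28 and 0.18 to 0.32. The lone library left in a group was assumed to vary like the other groups. Without untreated replicate 2, 1142 genes were called for erlotinib and 683 for osimertinib relative to untreated. Without erlotinib replicate 2, 1141 were called for erlotinib relative to untreated and the median between the drugs was 0.18. Without osimertinib replicate 1 or 2, 822 and 969 were called for osimertinib, and between the drugs 111 were called without osimertinib replicate 1 and 251 without erlotinib replicate 1. Replicate numbers did not pair the samples, as deviations of same-numbered libraries had correlations between −0.00304 and 0.0101. With the replicate block, 11819, 1896, 1587 and 449 genes were called, and 6, 6, 2 and 3 members, TEX10 being lost for osimertinib. The cause of these changes was not tested. Read depth limits the shallow guides, MDN1 guide 1 above all.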
